A study of Mus musculus with 18 samples.

Results

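Hyaluronan and versican form the loose, hydrated matrix of the uterine stroma, and the 10 genes described here make, bind or cut it: the hyaluronan synthases Has1, Has2 and Has3, the hyaluronidase Hyal2, the hyaluronan receptor Cd44, versican itself (Vcan) and the versican proteases Adamts1, Adamts4, Adamts5 and Adamts9. They were chosen by symbol, with earlier results of these data known, as 10 of the 22238 symbols in the deposited count table. All 10 were tested among 15494 genes that passed a filter on low counts. Total RNA from whole uterus homogenate was sequenced in ovariectomized adult CD-1 mice, an outbred stock. The DOX E2, DOX P4 and DOX OIL groups received doxorubicin, an anthracycline used in chemotherapy, and the PBS E2, PBS P4 and PBS OIL groups received PBS in its place. Within each arm, E2 stands for estradiol, P4 for progesterone and OIL for the oil that served as the hormone vehicle. Each of the 6 groups had 3 libraries. The sources used here state neither dose nor time. The labels also do not state whether the 3 libraries of a group are from 3 different animals; a p-value then reflects only how far these samples scatter, which may be technical.

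Hyaluronan is a long unsulfated glycosaminoglycan that the 3 synthases extrude through the plasma membrane from UDP-glucuronic acid and UDP-N-acetylglucosamine. Versican is a large chondroitin sulfate proteoglycan that binds hyaluronan through its amino-terminal domain, and ADAMTS metalloproteases cut its core protein. In the rodent uterus, estradiol causes water uptake and stromal swelling within hours to days, and progesterone prepares the stroma for implantation.

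The libraries held 18042357 to 39783785 counts, the deepest being PBS E2 replicate 1. Markers of uterine epithelium, stroma and smooth muscle were detected in every group. No marker on any of the 8 cell type lists was at 0 in a group. Adipocyte markers, which mark fat attached to a dissected uterus, stood apart: their summed level was 35.3 to 227 CPM (counts scaled to a common library size) in DOX E2 libraries and 303 to 4916 CPM in PBS E2 libraries, with the top value in PBS E2 replicate 1. In whole tissue, fewer cells of a type and less RNA per cell cannot be told apart.

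The promoters of Has1, the synthase that rose with estradiol, of Adamts1, the most abundant protease transcript, and of Cd44, the member that differed between DOX and PBS, are shown because the results turn on these genes. Each is the 300 bases from 250 before to 50 after the annotated start, from RefSeq on build GRCm38.p6, minus strand, at chr17:17855139-17855438 for Has1, chr16:85803064-85803363 for Adamts1 and chr2:102901616-102901915 for Cd44. Capitals mark matches to the searched motifs.
Has1: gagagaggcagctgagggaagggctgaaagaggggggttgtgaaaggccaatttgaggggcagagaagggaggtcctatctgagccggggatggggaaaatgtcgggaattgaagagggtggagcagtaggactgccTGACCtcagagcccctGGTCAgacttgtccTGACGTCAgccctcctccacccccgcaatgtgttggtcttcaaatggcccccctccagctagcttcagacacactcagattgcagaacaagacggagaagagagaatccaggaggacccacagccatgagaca
Adamts1: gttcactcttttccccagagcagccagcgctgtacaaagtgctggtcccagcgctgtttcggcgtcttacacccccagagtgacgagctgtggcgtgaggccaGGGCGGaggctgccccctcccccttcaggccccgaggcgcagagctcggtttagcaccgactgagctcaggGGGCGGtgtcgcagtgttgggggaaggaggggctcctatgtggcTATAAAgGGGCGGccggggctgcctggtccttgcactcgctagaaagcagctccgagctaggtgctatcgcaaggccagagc
Cd44: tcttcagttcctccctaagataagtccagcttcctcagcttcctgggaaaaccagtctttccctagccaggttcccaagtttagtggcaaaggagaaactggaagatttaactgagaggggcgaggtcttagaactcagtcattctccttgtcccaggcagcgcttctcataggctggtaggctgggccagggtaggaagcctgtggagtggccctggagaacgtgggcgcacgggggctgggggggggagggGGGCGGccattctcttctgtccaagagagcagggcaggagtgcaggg
Of the 10 genes, 6 had a promoter sequence (these 3, Hyal2, Vcan and Adamts9). Has2, Has3, Adamts4 and Adamts5 are named only.

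7 motifs were searched on both strands. Neither the full estrogen response element (GGTCANNNTGACC), held by 0.07% of 32851 promoters of the same length, nor the progesterone response element (GNACANNNTGTNC), held by 0.475%, was among the letters of these 6 windows, and neither was AP-1 (TGANTCA, 7.81%). The Has1 promoter held 2 copies of the estrogen response half-site (GGTCA, or TGACC on the other strand), TGACC at -113 to -109 and GGTCA at -97 to -93, counted from the start site. A single half-site was in 40.5% of all promoters, and at least 2 were in 10.8%. A cyclic AMP response element (TGACGTCA) lay at -83 to -76 of Has1, and 1.79% of promoters held one; this motif was added to the search after the Has1 sequence had been seen. The Adamts1 promoter held a TATA box (TATAAA, 13.6% of promoters) at -32 to -27 and 3 Sp1 motifs (GGGCGG, 35.7%) that begin at -147, -76 and -25. Cd44 had 1 Sp1 motif, at 4 to 9 after the start. A match is a run of letters, and binding was not measured.

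Estradiol changed most of the 10 genes. Against OIL, 6 rose and 2 fell in the DOX arm, where 72.6% of all tested genes passed an adjusted p of 0.05 (35.1% higher and 37.5% lower). With PBS, 5 rose and 2 fell, where 61.4% of all genes passed (29.6% higher and 31.9% lower). The number of members called was therefore near the share of all genes. The median log2 fold change of the 10 genes, whose sign follows how many rose and fell, was 1.20 in the DOX arm and 0.80 in the PBS arm. Over all tested genes it was -0.08 and -0.09. Because the genes were chosen with earlier results of these data known, this contrast describes them and is not a test. Has1, Hyal2, Adamts1, Adamts4 and Adamts9 rose in both arms, which share no libraries, and Has3 fell in both.

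Has1, on the minus strand of chromosome 17 (17843323 to 17855205, GRCm38), encodes the least studied of the synthases and was the one that estradiol raised. It had 41.94, 30.22 and 72.29 CPM in DOX E2 uteri and 108.7, 46.18 and 72.77 CPM in PBS E2 uteri. Without estradiol it was close to undetected, at 1.617, 0.917 and 0.316 CPM in DOX OIL libraries and 0.49, 0.929 and 0.326 CPM in PBS OIL libraries, the last from 7 to 20 counts. Every E2 library was above every P4 and OIL library. The rise against OIL was 48.8-fold in the DOX arm (log2 fold change 5.61 ± 0.59 SE, adjusted p = 3.81e-07) and 130-fold in the PBS arm (7.02 ± 0.64, adjusted p = 1.92e-07). Has1 reached the count minimum in all 3 libraries of both E2 groups, in 1 of 3 DOX P4 libraries and in 2 of 3 libraries of each of the other groups. Mesothelial cells are known to make hyaluronan. The summed level of 6 mesothelial markers was 260 to 297 CPM in DOX E2 libraries and 371 to 455 CPM in DOX OIL libraries. It was 341 to 397 CPM in PBS E2 libraries and 325 to 376 CPM in PBS OIL libraries. The part of these cells in the rise of Has1 was not tested.

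Has2, on the minus strand of chromosome 15 (56665627 to 56694539), is the synthase whose loss is lethal to mouse embryos, and it followed progesterone rather than estradiol. It had 8.913, 8.31 and 13.99 CPM in DOX P4 uteri, against 5.098, 2.202 and 2.58 CPM in DOX OIL uteri. With PBS it had 6.478, 8.411 and 10.21 CPM under P4, against 2.63, 2.368 and 2.797 CPM with OIL. All P4 libraries were above all OIL libraries. The rise was 3.14-fold in the DOX arm (log2 fold change 1.65 ± 0.34, adjusted p = 0.00218) and 3.22-fold in the PBS arm (1.68 ± 0.34, adjusted p = 0.00208).

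With estradiol, Has2 had 1.859, 1.083 and 2.423 CPM in DOX E2 uteri and 2.506, 4.119 and 3.458 CPM in PBS E2 uteri. In the DOX arm Has2 fell with E2 by 0.88 on the log2 scale (SE 0.35, adjusted p = 0.0353), but the groups overlapped and the call rests on few libraries: without DOX OIL replicate 1 the change was -0.41, and without DOX E2 replicate 2 it was -0.62, neither past the threshold. The call was also lost without DOX E2 replicate 1 (-0.91), with limma voom (-0.84) and with only the groups compared (-0.87). In the PBS arm the E2 and OIL libraries overlapped (log2 fold change 0.36 ± 0.34, adjusted p = 0.379).

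Has3, on the plus strand of chromosome 8 (106870242 to 106884566), went the opposite way to Has1. It had 1.808, 2.837 and 3.409 CPM in DOX E2 uteri, against 11.56, 12.75 and 8.213 CPM in DOX OIL uteri. With PBS, Has3 had 3.202, 3.415 and 3.982 CPM with E2, against 8.379, 8.822 and 10.81 CPM with OIL. The E2 libraries were all below the OIL libraries, a 4.02-fold fall in the DOX arm (adjusted p = 1.24e-06) and a 2.65-fold fall in the PBS arm (adjusted p = 6.98e-05). Progesterone gave log2 fold changes of -0.25 ± 0.22 in the DOX arm (adjusted p = 0.411) and 0.11 ± 0.22 in the PBS arm (adjusted p = 0.733).

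**Figure D1:**
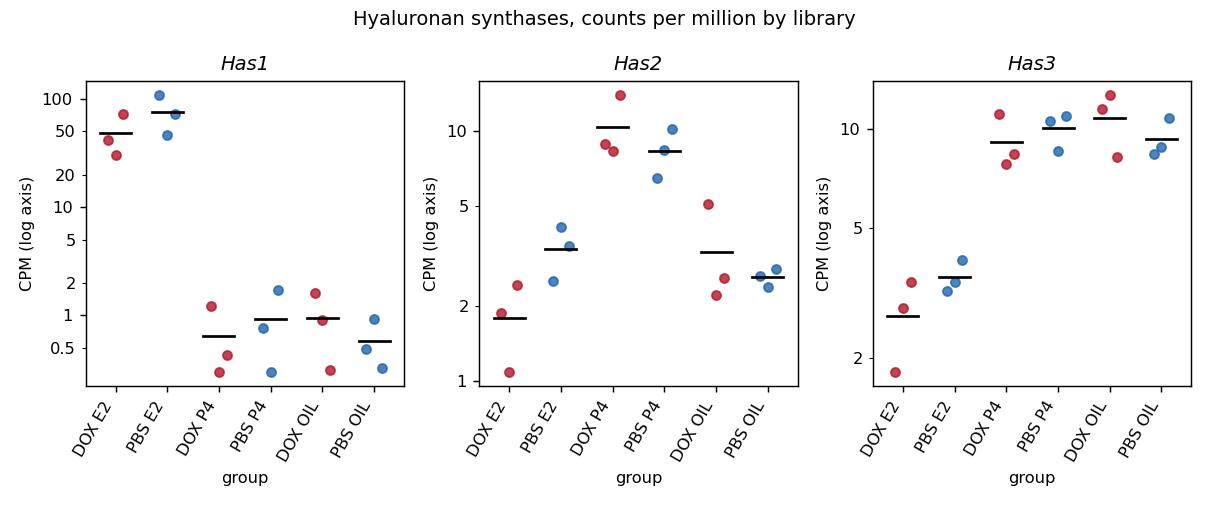
CPM on a log axis of the 3 hyaluronan synthases in every library, DOX in red and PBS in blue, by group; the bar is the mean of 3 libraries. Has1 is high in the E2 groups, Has2 is highest in the P4 groups, and Has3 is lowest in the E2 groups.

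By group means, a different synthase transcript led under each hormone. On a scale of CPM per kilobase of exon, Has1 made up 92.3% ± 1.57 of the synthase total in DOX E2 uteri and 91.5% ± 4.26 in PBS E2 uteri (SD, n = 3 each). Has2 made up 60.4% ± 9.45 in DOX P4 uteri and 52.4% ± 6.53 in PBS P4 uteri, with Has3 at 36.0% ± 7.33 and 42.4% ± 6.14. In PBS P4 replicate 1, however, Has3 led, with 49.5% against 45.5% for Has2. Under OIL, Has3 led, with 64.2% ± 9.92 in DOX OIL uteri and 66.2% ± 3.16 in PBS OIL uteri. The summed level itself was 11.5 ± 5.03 CPM per kilobase in DOX E2 uteri and 18.1 ± 6.73 in PBS E2 uteri. It was 4.03 ± 0.737 in DOX P4 uteri, 3.76 ± 0.656 in PBS P4 uteri, 2.69 ± 0.704 in DOX OIL uteri and 2.21 ± 0.199 in PBS OIL uteri.

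**Figure D2:**
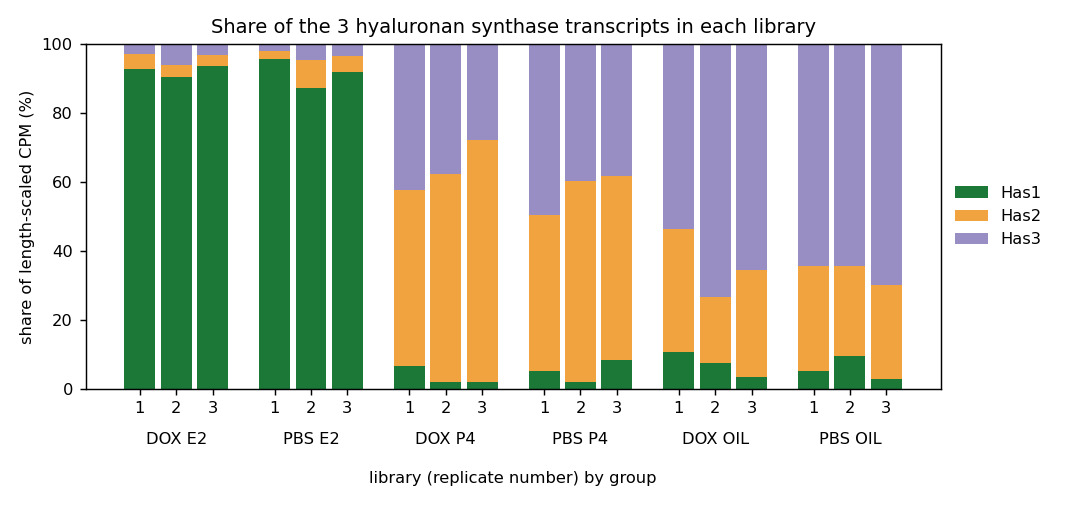
Share of the summed CPM per kilobase of Has1, Has2 and Has3 in each library, in percent, by group. Has1 holds at least 87.1% in every E2 library, Has2 45.5% to 70.0% in the P4 libraries, and Has3 at least 53.7% in every OIL library.

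Hyal2 and Cd44 act on finished hyaluronan. Hyal2, on the plus strand of chromosome 9 (107567945 to 107572779), encodes a cell-surface hyaluronidase that cuts long chains into fragments. It had 74.68, 83.56 and 87.9 CPM in DOX E2 uteri, against 33.33, 33.39 and 27.96 CPM in DOX OIL uteri. With PBS it had 92.77, 79.62 and 80.1 CPM under E2, against 36.46, 37.01 and 33.23 CPM under OIL. The libraries did not overlap, and the spread was the smallest among the 10 genes: the rise was 2.60-fold in the DOX arm (log2 fold change 1.38 ± 0.09, adjusted p = 3.59e-09) and 2.37-fold in the PBS arm (1.24 ± 0.09, adjusted p = 3.14e-08). Progesterone gave 0.11 ± 0.09 in the DOX arm (adjusted p = 0.421) and 0.13 ± 0.09 in the PBS arm (adjusted p = 0.306).

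Cd44, on the minus strand of chromosome 2 (102811141 to 102901665), encodes the main cell-surface receptor for hyaluronan, and it was the 1 member called for DOX against PBS. Under estradiol it had 125.3, 137.9 and 129.7 CPM in DOX E2 uteri, against 70.41, 63.36 and 53.96 CPM in PBS E2 uteri. The lowest DOX E2 library was above the highest PBS E2 library, and above every library of the other groups. The difference was 2.09-fold (log2 fold change 1.06 ± 0.20, 95% interval 0.65 to 1.48, adjusted p = 0.000663). It held under all 14 alternatives tried, between 0.97 and 1.25, among them a fit with the adipocyte score as a covariate (1.21 ± 0.29, adjusted p = 0.00979).

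The receptor answered estradiol in the DOX arm, where DOX OIL uteri had 51.15, 73.85 and 68.5 CPM: the rise was 2.03-fold (log2 fold change 1.02 ± 0.20, adjusted p = 0.000213). In the PBS arm the change with estradiol was -0.01 ± 0.20 (95% interval -0.43 to 0.41, adjusted p = 0.967), with 52.15, 88.22 and 48.94 CPM in PBS OIL uteri. The difference between these 2 responses was itself past the threshold (interaction 1.03 ± 0.28 on the log2 scale, 95% interval 0.45 to 1.62, adjusted p = 0.0155), and it held under all 20 alternatives, between 0.71 and 1.19. Over all genes, 22.9% passed this interaction test (10.1% higher and 12.8% lower), and of the 10 members Cd44 alone did.

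With progesterone, Cd44 had 113.4, 83.96 and 100.9 CPM in DOX P4 uteri and 71.84, 84.24 and 88.82 CPM in PBS P4 uteri. Against OIL it rose 1.54-fold in the DOX arm (log2 fold change 0.62 ± 0.20, adjusted p = 0.0253), a call lost without DOX OIL replicate 1 (0.48), without DOX P4 replicate 1 (0.52) and without DOX P4 replicate 3 (0.61). In the PBS arm the value was 0.37 ± 0.20 (adjusted p = 0.158), and it passed without PBS OIL replicate 2 (0.69). The P4 by DOX interaction was 0.25 ± 0.28 (adjusted p = 1), so a difference between the arms was not shown. The counts are per gene, and splice forms of Cd44 are not told apart.

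Versican fell with estradiol in the PBS arm and rose with progesterone in both arms. Vcan, on the minus strand of chromosome 13 (89655312 to 89742509), had 25.93, 41.83 and 37.75 CPM in DOX E2 uteri, against 60.77, 50.36 and 38.28 CPM in DOX OIL uteri. With PBS it had 18.93, 27.59 and 31.8 CPM under E2, against 32.36, 63.7 and 52.53 CPM under OIL. In the DOX arm the groups overlapped and the log2 fold change was -0.50 ± 0.26 (adjusted p = 0.0896). In the PBS arm it fell 1.90-fold with no overlap (-0.93 ± 0.26, adjusted p = 0.00565), and the interaction of 0.43 ± 0.36 did not pass (adjusted p = 0.416). Some stroma markers moved with this comparison, in which 37.5% of all genes fell in the DOX arm and 31.9% in the PBS arm. In the DOX arm 5 of 6 fell, with sums of 1843 to 2668 CPM in DOX E2 libraries and 4716 to 5202 CPM in DOX OIL libraries. In the PBS arm 3 of 6 fell, with sums of 3207 to 4678 CPM in PBS E2 libraries and 3285 to 5127 CPM in PBS OIL libraries, and their part in the fall of Vcan was not tested.

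Under progesterone Vcan had 88.54, 92.39 and 120.6 CPM in DOX P4 uteri and 69.55, 91.4 and 91.23 CPM in PBS P4 uteri, the highest levels of the 6 groups. All P4 libraries were above the OIL libraries of their arm. The rise was 2.02-fold in the DOX arm (log2 fold change 1.01 ± 0.26, adjusted p = 0.00805), and 1.70-fold in the PBS arm (0.76 ± 0.25, adjusted p = 0.0327). The call in the PBS arm was lost without PBS OIL replicate 1 (0.53) or 3 (0.81) and without PBS P4 replicate 2 (0.70) or 3 (0.70). It was also lost with the adipocyte score as a covariate (0.66, adjusted p = 0.166) and with only the groups compared (0.76, adjusted p = 0.0567). Adipocyte sums were 137 to 367 CPM in PBS P4 libraries and 716 to 2717 CPM in PBS OIL libraries. Smooth muscle markers were higher in the same comparison, with 5 of 6 rising in each arm: their sums were 13842 to 25029 CPM in DOX P4 libraries against 5968 to 12957 CPM in DOX OIL libraries, and 12617 to 16728 CPM in PBS P4 libraries against 6748 to 7726 CPM in PBS OIL libraries. Of 6 stroma markers 4 rose in the DOX arm and 3 in the PBS arm, though their sums overlapped in both. Over all genes, 14.7% rose with progesterone in the DOX arm and 16.2% in the PBS arm. The part of these cell types in the rise of Vcan, Has2 and the proteases was not tested.

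**Figure D3:**
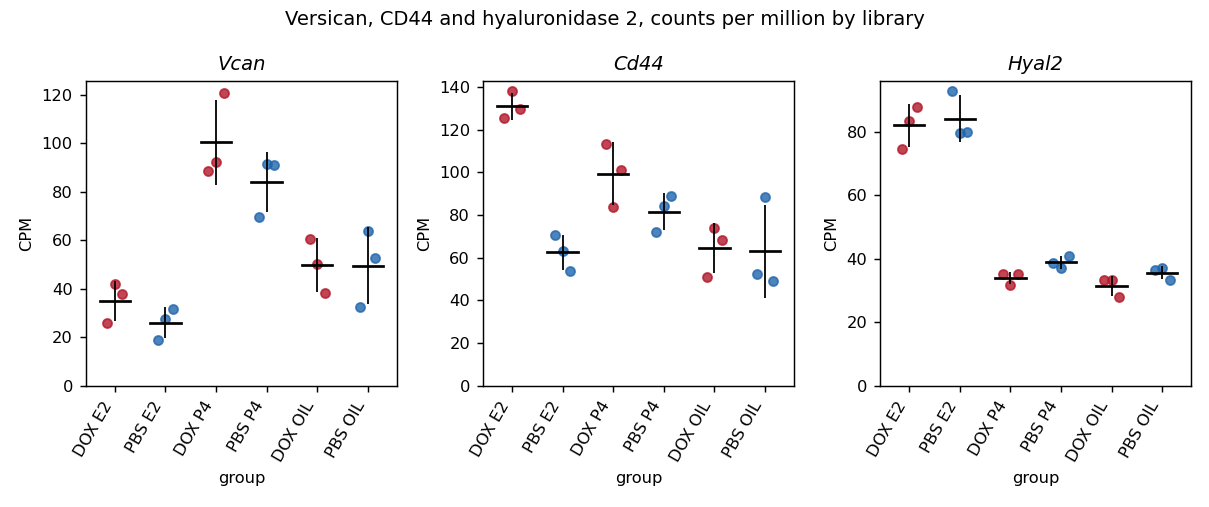
CPM of Vcan, Cd44 and Hyal2 in every library by group, DOX in red and PBS in blue; the horizontal bar is the mean and the vertical line 1 SD of 3 libraries. Cd44 lies above 125 CPM only in DOX E2 libraries, Vcan is highest in the P4 groups, and Hyal2 is highest in the E2 groups of both arms.

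Of the proteases, Adamts1, Adamts4 and Adamts9 rose with estradiol and, by less, with progesterone, and Adamts5 was called for neither. Adamts1, which is required for normal ovulation in mice, lies on the minus strand of chromosome 16 (85793827 to 85803113). It had 1062, 1017 and 1400 CPM in DOX E2 uteri and 1102, 695.1 and 1175 CPM in PBS E2 uteri. It had 262.4, 260.6 and 226.4 CPM in DOX P4 uteri and 250.7, 203.5 and 302.3 CPM in PBS P4 uteri. The OIL levels were 126.5, 97.7 and 74.45 CPM with DOX and 64.36, 99.64 and 106.8 CPM with PBS. The E2 libraries, the P4 libraries and the OIL libraries formed 3 levels without overlap.

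For Adamts1 the rise with estradiol was 11.6-fold in the DOX arm (log2 fold change 3.54 ± 0.26, adjusted p = 7.61e-09) and 11.0-fold in the PBS arm (3.46 ± 0.26, adjusted p = 3.1e-08). The interaction of 0.08 ± 0.33 had a 95% interval of -0.63 to 0.80. With progesterone it rose 2.51-fold in the DOX arm (adjusted p = 0.00105) and 2.79-fold in the PBS arm (adjusted p = 0.000512), calls that held under all 14 alternatives in each arm.

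Adamts4, on the plus strand of chromosome 1 (171250421 to 171260637), encodes an aggrecanase that also cuts versican. It had 249.4, 308.3 and 431.4 CPM in DOX E2 uteri, against 1.617, 1.926 and 1.211 CPM in DOX OIL uteri. PBS E2 uteri had 342, 87.86 and 190.7 CPM, against 2.095, 4.643 and 1.398 CPM in PBS OIL uteri. The rise was 206-fold in the DOX arm (log2 fold change 7.69 ± 0.85, adjusted p = 6.29e-07) and 76.3-fold in the PBS arm (6.25 ± 0.78, adjusted p = 5.11e-06). The interaction of 1.43 ± 1.07 did not pass (adjusted p = 0.35). Smooth muscle sums overlapped between DOX E2 (8166 to 10051 CPM) and DOX OIL (5968 to 12957 CPM) libraries and were higher in PBS E2 (9249 to 10249 CPM) than in PBS OIL (6748 to 7726 CPM) libraries.

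The progesterone response of Adamts4 was smaller and less certain. It had 9.772, 5.001 and 9.474 CPM in DOX P4 uteri, a 5.04-fold rise over DOX OIL (log2 fold change 2.33 ± 0.80, adjusted p = 0.0392), with no overlap. It had 3.599, 3.968 and 27.15 CPM in PBS P4 uteri. That arm's call (2.08 ± 0.74, adjusted p = 0.0425) rests on replicate 3, since the groups overlapped and the value without it was 0.48. In each arm the call was kept under 7 of 14 alternatives. In the DOX arm it was lost without any 1 of the 3 DOX OIL libraries or DOX P4 replicate 1 or 3 (2.18 to 2.49), and in the PBS arm also without PBS OIL replicate 1 (1.92) or 3 (1.78).

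Adamts9, a versican and aggrecan protease on the minus strand of chromosome 6 (92772699 to 92943492), had 263.7, 322.5 and 289.1 CPM in DOX E2 uteri, against 30.18, 35.09 and 43.17 CPM in DOX OIL uteri. With PBS it had 286.4, 153.2 and 192.3 CPM under E2, against 21.44, 52.61 and 34.21 CPM under OIL. The rise was 8.08-fold in the DOX arm (log2 fold change 3.01 ± 0.28, adjusted p = 8.6e-08) and 5.84-fold in the PBS arm (2.55 ± 0.27, adjusted p = 1.04e-06). With progesterone it had 81.89, 64.97 and 66.57 CPM in DOX P4 uteri and 60.33, 70.78 and 60.3 CPM in PBS P4 uteri, above every OIL library of their arm. This was a 1.97-fold rise in the DOX arm (adjusted p = 0.0115) and a 1.77-fold rise in the PBS arm (adjusted p = 0.0269). The first call was lost without DOX OIL replicate 1 (0.86), and the second without PBS OIL replicate 1 (0.55) or 3 (0.79) and without PBS P4 replicate 2 (0.74) or 3 (0.86).

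Adamts5, the other main aggrecanase, is the neighbour of Adamts1, with 53059 bases between them on the same strand of chromosome 16 (85856173 to 85901828). It had 16.73, 25.02 and 31.83 CPM in DOX E2 uteri and 31.27, 19.57 and 30.91 CPM in PBS E2 uteri. The OIL levels were 34.28, 42.52 and 27.27 CPM with DOX and 25.45, 40.58 and 33.89 CPM with PBS, so the groups overlapped. The estradiol values were -0.50 ± 0.23 in the DOX arm (adjusted p = 0.0656) and -0.29 ± 0.23 in the PBS arm (adjusted p = 0.298). Under progesterone the values were 0.16 ± 0.23 and -0.15 ± 0.23 for the DOX and PBS arms (adjusted p = 0.649 and 0.65).

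**Figure D4:**
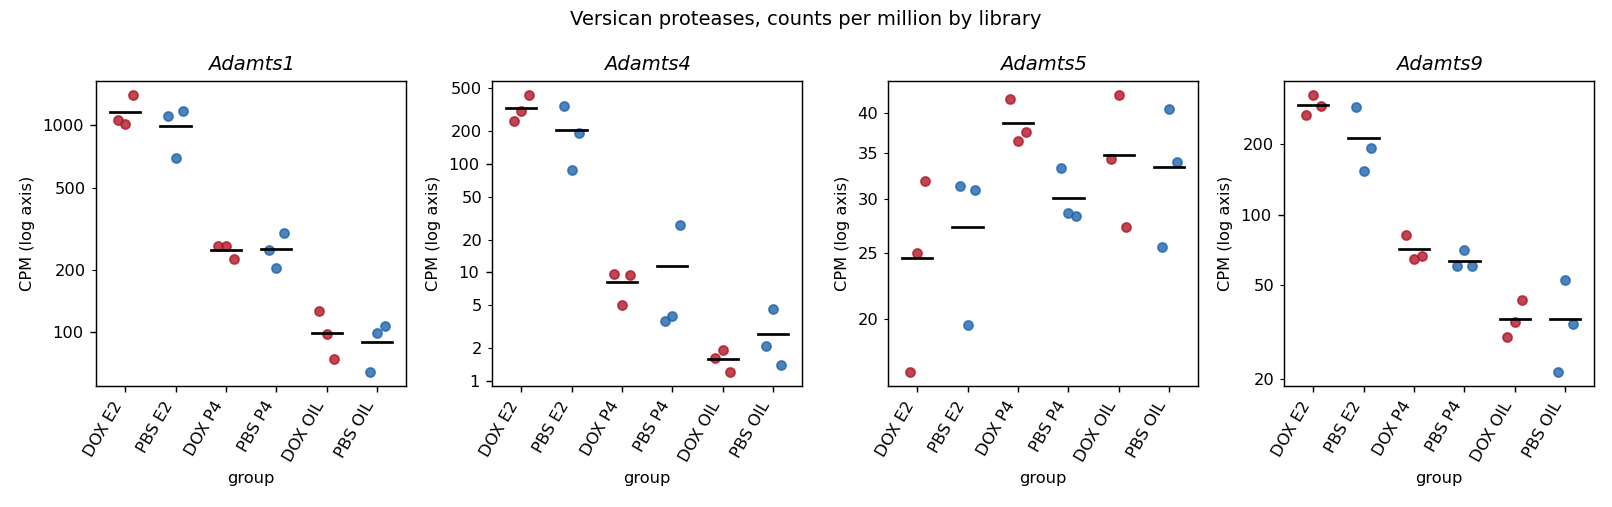
CPM on a log axis of the 4 versican proteases in every library, DOX in red and PBS in blue, by group; the bar is the mean of 3 libraries. Adamts1, Adamts4 and Adamts9 are highest in the E2 groups, lower in the P4 groups and lowest in the OIL groups by their means, and the groups of Adamts5 overlap.

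Per kilobase of exon, Adamts1 led the proteases in every group, with mean shares of 70.9% to 83.5% of the summed level. Adamts4 held 22.0% ± 2.51 in DOX E2 uteri and 16.4% ± 6.42 in PBS E2 uteri, and between 1.34% and 3.76% in the P4 and OIL groups. The summed protease level was 309 ± 58.1 CPM per kilobase in DOX E2 uteri and 246 ± 74.6 in PBS E2 uteri. It was 57.1 ± 4.19 in DOX P4 uteri, 57.0 ± 11.5 in PBS P4 uteri, 24.7 ± 4.86 in DOX OIL uteri and 23.1 ± 5.85 in PBS OIL uteri. Versican itself stood at 2.43 ± 0.571 CPM per kilobase in DOX E2 uteri and 1.81 ± 0.454 in PBS E2 uteri. Its level was 6.95 ± 1.21 in DOX P4 uteri, 5.81 ± 0.869 in PBS P4 uteri, 3.44 ± 0.778 in DOX OIL uteri and 3.42 ± 1.1 in PBS OIL uteri.

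Within PBS E2, replicate 2 was the lowest of its group for Has1, Hyal2, Adamts1, Adamts4, Adamts5 and Adamts9 and the highest for Has2. Some exons of members overlap genes on the opposite strand, and the sources used here do not state whether reads were counted by strand. The overlap was 9.18% of Adamts9 exon bases with A730049H05Rik, 5.52% of Has3 with Chtf8, 4.3% of Has2 with Has2os and 2.82% of Adamts9 with Gm15737. A730049H05Rik averaged 3.75 CPM in DOX E2 uteri and at most 1.84 CPM in the other groups, far below Adamts9. Chtf8 was at 201 CPM in DOX E2 uteri and 145 CPM in DOX OIL uteri, above Has3 in both.

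Against this hormonal pattern, doxorubicin was tested within each hormone. Under estradiol, 41.0% of all tested genes passed (20.4% higher and 20.6% lower), and of the 10 members 1 did, Cd44. The median log2 fold change was 0.09 over the members and 0.02 over all genes. Has2 came next, with the 3 DOX E2 libraries below the 3 PBS E2 libraries (log2 fold change -0.89 ± 0.35, 95% interval -1.64 to -0.14, adjusted p = 0.0555). It was past the threshold without PBS E2 replicate 1 (-1.07), without DOX E2 replicate 3 (-1.18) and with DESeq2 and voom. Its E2 by DOX interaction of -1.23 ± 0.49 did not pass (adjusted p = 0.0809).

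The other members were not called, which does not show that they were equal, and the intervals of the log2 fold change give what differences the data leave possible. Hyal2 had the narrowest bound (log2 fold change -0.04 ± 0.09, 95% interval -0.23 to 0.16, adjusted p = 0.775). The interval was -0.27 to 0.73 for Adamts1, -0.08 to 1.01 for Adamts9, -0.58 to 1.92 for Adamts4 and -1.59 to 0.28 for Has1. For the other members it was -0.89 to 0.12 for Has3, -0.11 to 0.99 for Vcan and -0.65 to 0.34 for Adamts5, with adjusted p-values between 0.157 and 0.632 for these 7 genes. Without PBS E2 replicate 1, Adamts9 passed as well (0.75). With voom, Has1 (-0.68), Adamts4 (0.83) and Adamts9 (0.63) passed.

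Some cell type markers moved with the same comparison, in which 20.4% of all genes rose and 20.6% fell. All 10 adipocyte markers fell in DOX E2 uteri. Of 4 lymphatic markers 3 fell, with sums of 60.7 to 102 CPM in DOX E2 libraries and 147 to 214 CPM in PBS E2 libraries. Of 6 mesothelial markers 3 fell, with sums of 260 to 297 CPM in DOX E2 libraries and 341 to 397 CPM in PBS E2 libraries. The stroma sums were 1843 to 2668 CPM in DOX E2 libraries and 3207 to 4678 CPM in PBS E2 libraries. Of the 6 stroma markers Dcn was lower, Pdgfra was higher and 4 were not called, with a median log2 fold change of -0.05. Of 6 epithelial markers 2 rose, with sums of 627 to 910 CPM in DOX E2 libraries and 437 to 611 CPM in PBS E2 libraries. None of 7 macrophage markers passed, and their sums overlapped at 257 to 499 CPM in DOX E2 libraries and 363 to 385 CPM in PBS E2 libraries. No smooth muscle marker of 6 passed, and of 6 endothelial markers 1 rose. The sums of both these lists overlapped between DOX E2 and PBS E2 libraries. With the adipocyte score as a covariate the value of Has1 was 0.72 in place of -0.66, neither past the threshold; the part of the other cell types in the Cd44 result was not tested.

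Under progesterone and under OIL, 0 of the 10 genes passed for DOX against PBS by edgeR, DESeq2 or voom. Over all genes, 0% passed under P4 and 0.0129% under OIL, with 822 and 1253 genes at an unadjusted p under 0.05. DESeq2 called 10 and 21 genes and voom 4 and 1. Under P4, Hyal2 was lower in all 3 DOX libraries than in all 3 PBS libraries (log2 fold change -0.19 ± 0.09, 95% interval -0.39 to 0.00, adjusted p = 0.892) and Adamts5 was higher in all 3 (0.36 ± 0.23, interval -0.13 to 0.86, adjusted p = 0.894). Cd44 differed by 0.28 ± 0.19 under P4 (interval -0.13 to 0.70) and by 0.03 ± 0.20 under OIL (interval -0.38 to 0.45). The P4 by DOX interaction called 0.00645% of all genes and none of the 10.

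**Figure D5:**
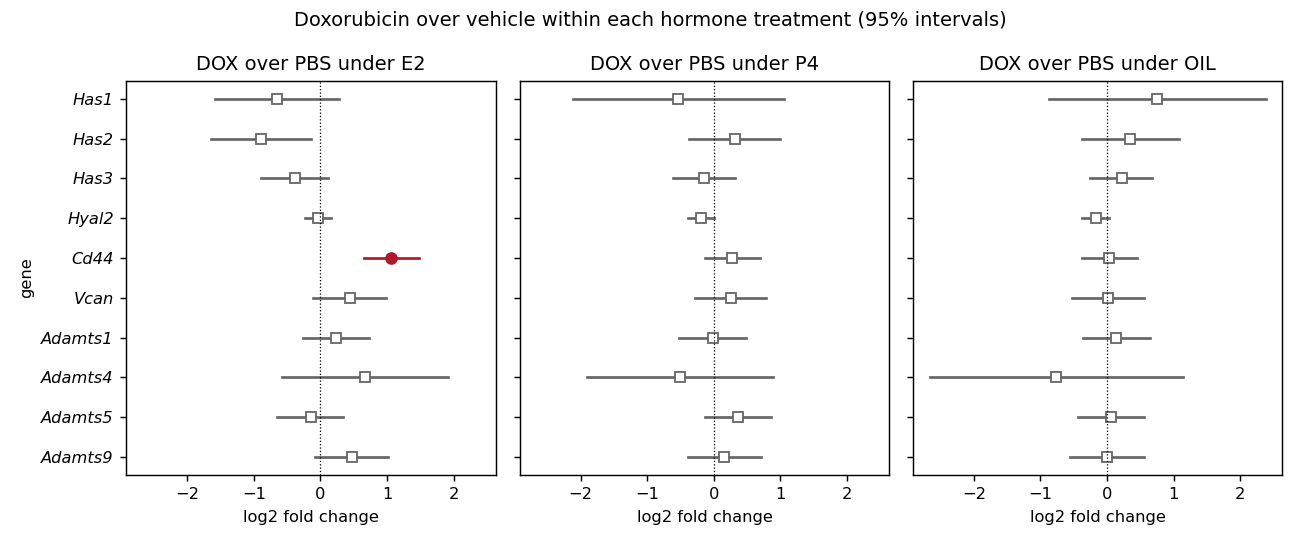
Log2 fold change of DOX against PBS for the 10 genes under each hormone, with 95% intervals of the edgeR fit; the dotted line at 0 marks equal levels, a filled red circle a called gene and an open square one not called. The interval of Cd44 under E2 lies between 0.65 and 1.48, and Has2 under E2 is the only other interval that excludes 0 under that hormone.

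Progesterone against OIL called 6 members in the DOX arm and 5 in the PBS arm, all higher. Over all genes 29.8% passed in the DOX arm (14.7% higher and 15.1% lower) and 31.8% in the PBS arm (16.2% higher and 15.6% lower). Has2, Vcan, Adamts1, Adamts4 and Adamts9 were called in both arms. The median log2 fold change of the 10 genes was 0.80 in the DOX arm and 0.70 in the PBS arm, beside -0.02 and -0.01 over all genes. As with estradiol, this contrast is not a test, given how the genes were chosen. Has1 had 1.222, 0.301 and 0.434 CPM in DOX P4 uteri and 0.765, 0.302 and 1.703 CPM in PBS P4 uteri, which overlapped its OIL levels.

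For each gene, the 3 genes with the most similar profile were found by Pearson correlation of log2 CPM over the 18 libraries, which share the hormone groups, so a correlation mostly reads the hormone levels. Has1 was closest to Pvr, Socs3 and Usp36 (0.985 to 0.986), and Hyal2 to Tatdn2, Eif1ad and Mta2 (0.989 to 0.991). Adamts1 was closest to Top1, Pak2 and Foxk2 (0.986 to 0.987), Adamts4 to Bysl, Abcf2 and Opa3 (0.986 to 0.988) and Adamts9 to Ywhab, Pitpna and Mapre1 (0.986 to 0.991). Has3 was closest to Tnfrsf14, Amdhd2 and Fancg (0.962 to 0.968), Has2 to Wfdc1, Pth1r and Igfbp4 (0.940 to 0.942) and Vcan to Zfp365, Maoa and Acot11 (0.920 to 0.945). The match was loosest for Cd44, with Alg12, Sec11c and Gclm (0.879 to 0.891), and Adamts5, with Slfn5, Pqlc3 and Ifi27l1 (0.833 to 0.882).

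Of 14 genes for hyaluronan precursor synthesis and breakdown, 6 rose and 2 fell with estradiol in the DOX arm, and 8 rose and 3 fell in the PBS arm. Of all genes, 35.1% rose and 37.5% fell with estradiol in the DOX arm, and 29.6% rose and 31.9% fell in the PBS arm. With progesterone, 14.7% rose and 15.1% fell in the DOX arm, and 16.2% rose and 15.6% fell in the PBS arm. For DOX against PBS under E2, 20.4% rose and 20.6% fell. The counts of this list and the 4 lists that follow are to be read against the shares of the same comparison. These lists, too, were chosen with earlier results of these data known. The median log2 fold change was 0.42 in the DOX arm and 0.34 in the PBS arm, beside -0.08 and -0.09 over all genes. Uap1, which makes UDP-N-acetylglucosamine, rose by a log2 fold change of 1.81 ± 0.14 in the DOX arm (adjusted p = 1.72e-08) and 1.61 ± 0.14 in the PBS arm (adjusted p = 1.59e-07). Gnpnat1, in the same hexosamine pathway, rose in both arms, by 1.02 ± 0.12 in the PBS arm, and Hyal1, the lysosomal hyaluronidase, by 1.53 ± 0.14 in the DOX arm and 1.15 ± 0.14 in the PBS arm. For DOX against PBS under E2, 4 rose and 4 fell: Gfpt1, the first enzyme of the hexosamine pathway, rose by 0.67 ± 0.09 (adjusted p = 6.77e-05) and Pgm3 by 0.79 ± 0.14, while Gfpt2, a second form of that enzyme, had a log2 fold change of -1.44 ± 0.27 (adjusted p = 0.000667), a call lost with the adipocyte score as a covariate. With progesterone 1 rose and 0 fell in the DOX arm, and 3 rose and 1 fell in the PBS arm.

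Of 23 genes that bind or organize hyaluronan, 17 passed the filter. With estradiol 4 rose and 7 fell in the DOX arm, and 3 rose and 6 fell in the PBS arm (median log2 fold change -0.50 and -0.62). This is no larger a share than the 72.6% and 61.4% of all genes that passed. Hapln1, a link protein that fixes proteoglycans to hyaluronan, had log2 fold changes of -4.32 ± 0.45 in the DOX arm (adjusted p = 3.75e-07) and -2.79 ± 0.41 in the PBS arm (adjusted p = 2.4e-05). Itih5, of the inter-alpha-trypsin inhibitor heavy chain family, fell with E2 in the DOX arm by 2.62 (SE 0.19, adjusted p = 5.15e-09). It was also lower in DOX E2 than in PBS E2 uteri (log2 fold change -1.69 ± 0.18, adjusted p = 9.99e-06), with an E2 by DOX interaction of -1.95 ± 0.25 (adjusted p = 0.000205). In that comparison 2 of 17 rose and 3 fell. Tnfaip6, which transfers heavy chains onto hyaluronan, rose with estradiol in the DOX arm by 1.25 ± 0.25 and with progesterone in the PBS arm by 1.24 ± 0.25 (adjusted p = 0.00186). Tnfaip6 was also called higher with progesterone in the DOX arm, but only 6 of 14 alternatives kept that call. Over the 14 alternatives its log2 fold change was 0.44 to 0.89. With progesterone 3 rose and 1 fell in the DOX arm, and 2 rose and 2 fell in the PBS arm; Tlr4, a receptor of innate immunity, had log2 fold changes of -0.93 ± 0.15 in the DOX arm and -1.15 ± 0.15 in the PBS arm (adjusted p = 0.000396 and 8.92e-05).

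Of 15 other ADAMTS proteases, 5 rose and 8 fell with estradiol in the DOX arm, and 3 rose and 7 fell in the PBS arm (median log2 fold change -1.61 and -1.06). Over all genes 37.5% and 31.9% fell. Adamts10, which binds fibrillin, had log2 fold changes of -2.37 ± 0.19 in the DOX arm (adjusted p = 2.14e-08) and -1.11 ± 0.18 in the PBS arm (adjusted p = 8.4e-05), and its interaction was -1.26 ± 0.26 (adjusted p = 0.00385). Adamts8 rose in both arms, by 1.15 ± 0.16 in the PBS arm (adjusted p = 1.99e-05). For DOX against PBS under E2, 4 rose and 5 fell. Adamts12 had a log2 fold change of -2.77 ± 0.30 (adjusted p = 9.53e-06) and Adamts14, a procollagen peptidase, of -1.78 ± 0.28 (adjusted p = 0.000191). With progesterone 5 rose and 1 fell in the DOX arm, and 3 rose and 3 fell in the PBS arm. Adamts16 rose by 3.31 ± 0.62 in the DOX arm (adjusted p = 0.00129) and by 3.48 ± 0.64 in the PBS arm (adjusted p = 0.00108).

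Of 11 inhibitors, activators and other partners of these proteases, 8 rose and 2 fell with estradiol in the DOX arm, and 7 rose and 0 fell in the PBS arm (median log2 fold change 0.82 and 0.58), where 35.1% and 29.6% of all genes rose. Fbln2, which encodes fibulin-2, rose by 2.47 ± 0.28 in the DOX arm (adjusted p = 7.82e-07) and 1.76 ± 0.27 in the PBS arm (adjusted p = 3.93e-05). Furin, a convertase that removes the propeptide of ADAMTS proteases, rose by 0.83 ± 0.09 in the DOX arm and 0.36 ± 0.09 in the PBS arm, and Timp3, an inhibitor of several of them, by 0.68 ± 0.13 in the PBS arm. For DOX against PBS under E2, 4 rose and 3 fell: Pcsk6, another convertase, rose by 1.19 ± 0.22 (adjusted p = 0.000725) and Timp2 fell by 1.46 (SE 0.17, adjusted p = 1.55e-05). Their interactions were 1.76 ± 0.32 for Pcsk6 (adjusted p = 0.00175) and -1.29 ± 0.23 for Timp2 (adjusted p = 0.00164). With progesterone 0 rose and 2 fell in each arm. Sdc4, a syndecan, had log2 fold changes of -0.64 ± 0.14 in the DOX arm and -0.53 ± 0.14 in the PBS arm, and Pcsk6 of -0.68 ± 0.23 and -1.04 ± 0.23; the Pcsk6 call in the DOX arm was lost without DOX OIL replicate 2 or 3 or DOX P4 replicate 3, and both Sdc4 and Pcsk6 lost theirs in the PBS arm with the adipocyte score as a covariate.

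Of 23 enzymes that build chondroitin sulfate chains such as those of versican, 9 rose and 9 fell with estradiol in the DOX arm, and 9 rose and 7 fell in the PBS arm (median log2 fold change 0.17 and 0.06). This is near the share of all genes that passed, 72.6% in the DOX arm and 61.4% in the PBS arm. Chst11, a chondroitin 4-O-sulfotransferase, rose by 3.37 ± 0.13 in the DOX arm (adjusted p = 9.78e-11) and 2.92 ± 0.13 in the PBS arm (adjusted p = 1.14e-09). Chpf, a chondroitin polymerizing factor, rose by 1.58 ± 0.13 in the DOX arm and 1.41 ± 0.13 in the PBS arm. Csgalnact1, which starts the chain, fell with E2 in the DOX arm by 2.21 (SE 0.19, adjusted p = 3.36e-08). For DOX against PBS under E2, 3 rose and 3 fell, with Ust, a uronyl 2-O-sulfotransferase, at -0.85 ± 0.15 (adjusted p = 0.000451). With progesterone 8 rose and 1 fell in the DOX arm, and 4 rose and 1 fell in the PBS arm: Chpf rose by 1.07 ± 0.13 and 0.85 ± 0.13, and Chsy1, a chondroitin synthase, by 1.15 ± 0.18 and 1.14 ± 0.18. For DOX against PBS under P4 and under OIL, 0 genes of these 5 lists passed.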

How the data were processed

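Per the labels' protocols, Trizol was used for whole uterus RNA and a TruSeq kit for total RNA libraries; there were 18, 3 in each of 6 groups. The authors deposited raw counts per gene symbol. Per the submitters' processing notes, build GRCm38 was used with HISAT2 2.1.0 and StringTie 1.3.4d, and reads or tables were handled with FastQC 0.11.5, SAMtools 1.6, Trimmomatic 0.36 and, in R 3.4.4, DESeq2 1.18.1. What did the counting, on which annotation and with which strand setting is not stated in those sources. The table had 22238 symbols, 2904 of them with no counts.

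From these counts, filterByExpr (minimum count 10) kept 15494 genes. Scaling was by edgeR's TMM, and the quasi-likelihood F test of edgeR 4.0.16 in R 4.3.3 was fitted to all 6 groups (12 residual degrees of freedom). P-values were adjusted by Benjamini-Hochberg over all tested genes within each of 9 comparisons, threshold 0.05. The SE of a log2 fold change is its size divided by the square root of F, and intervals are at 95%. CPM are counts scaled to a common library size; the total ranged from 18042357 to 39783785 before scaling, so Has1 outside the E2 groups rests on 6 to 39 counts a library. Levels per kilobase used the union of exons of each gene on GRCm38.

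The alternatives were DESeq2 size factors, the Wald test of DESeq2 1.42.0, limma 3.58.1 voom with quality weights, no filter, 1 CPM in 3 libraries, only the groups compared, a replicate block, an adipocyte score as a covariate and each library left out in turn. The length of the longest coding transcript was added after seeing the data. All 10 members are named. Of the other lists, up to 4 called genes with the smallest p are named, and for each member the 3 genes with the closest profile. The members and lists were chosen with earlier results of these data known. Cemip and Adgre1 were matched by older symbols. After the main fit, the tests were also tried on counts simulated from the means and spread of these data. Some results are not reported here.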

Additional observations from a re-analysis of the deposited data

Results flagged for a closer look

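The response of Cd44 to estradiol differed between the arms by the test of the difference itself: the E2 by DOX interaction was 1.03 ± 0.28 on the log2 scale (edgeR, adjusted p = 0.0155, n = 3 libraries a group). The log2 fold change of E2 against OIL was 1.02 in the DOX arm and -0.01 in the PBS arm.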

How the results depend on the processing

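Among the values of the 10 members under the alternatives, 1247 kept their direction and side of the threshold, 34 lost a call and 16 gained one. Another 83 uncalled values changed sign, or went to or from 0.00 as rounded to 2 decimals. None of the calls reversed. The number of members called for DOX against PBS under E2 was 1, and became 2 with a replicate block (adding Has2), 2 with the DESeq2 Wald test (Has2) and 5 with voom (Has1, Has2, Adamts4, Adamts9), and 1 to 3 with each library left out in turn (3 without PBS E2 replicate 1, 2 without DOX E2 replicate 3). For P4 against OIL under DOX it was 6, and 3 to 6 with each library left out (3 without DOX OIL replicate 1). For P4 against OIL under PBS it was 5, became 2 with only the groups compared, and 2 to 6 with each library left out; Adamts1 and Has2 were called in all of these. The interaction of E2 and DOX called 1, and 1 to 2 with each library left out (Has2 added without PBS E2 replicate 1 or DOX E2 replicate 3).

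Over all genes, DOX against PBS under E2 called 6358 genes, and 3505 with the adipocyte score as a covariate. P4 against OIL under DOX called 4618, and 3057 without DOX P4 replicate 3, and under PBS 4930, 3096 with that covariate and 3146 without PBS P4 replicate 3. The E2 by DOX interaction called 3553, and 5331 with voom. Of the counts by direction in the 5 other lists, 1249 stayed within 1.5 times of the value given and 131 did not. Libraries with the same replicate number did not clearly deviate together. Above 0.1 were the correlations of 12 of 45 same-number pairs (-0.28 to 0.36, median -0.03). The same held for 23 of 90 other-number pairs (-0.31 to 0.27, median -0.01). Closest to their own number were 5 of 18 libraries. With the longest coding transcript as the length, the share of Has1 in DOX E2 uteri was 96.1%, and those of Adamts9 were 9.53% to 16.5% over the groups. The cause of these changes was not tested. With 3 libraries a group, Has1 and Adamts4 had SEs of 0.44 to 0.89 on the log2 scale in the simple comparisons, which limits what can be said of doxorubicin for them.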
